A study of Mus musculus with 89 samples.

Results

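Cardiac muscle genes were followed in whole mouse lung through 10 named members: Actc1, Myh6, Myl4, Myl7, Tnnt2, Tnni3, Nppa, Sln, Ryr2 and Pln. Each gene was represented by its probe set with the highest mean over all 89 arrays, and was compared over the 18 groups of strain and exposure given in the labels. Of the 10 members, 8 were measured, and all 8 were among the 15065 genes tested of 17097 measured. Myh6 (the cardiac alpha myosin heavy chain) and Sln (sarcolipin, a small regulator of the calcium pump) had no probe set under those symbols here and were not analysed. The list of members was set with earlier results of these data in view.

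In mice a sleeve of cardiac muscle runs from the left atrium along the pulmonary veins into the lung, so lung RNA carries transcripts of working, atrial-type heart muscle. These cells shorten by sliding actin filaments, which bear the troponin complex, past myosin filaments, whose heads carry light chains. Calcium released from the sarcoplasmic reticulum starts each contraction, and its uptake by a pump ends it. Actc1 encodes cardiac alpha-actin, Tnnt2 and Tnni3 the cardiac troponins T and I, Myl4 the atrial essential light chain and Myl7 the atrial regulatory light chain. Ryr2 encodes the calcium release channel, Pln encodes phospholamban, an inhibitor of the pump, and Nppa encodes the precursor of atrial natriuretic peptide, the hormone that atrial muscle secretes.

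RNA came from the perfused left lung lobe of male mice aged 7 to 8 weeks, of the strains SP-D-/-, BALB/c and C57BL/6. The Sftpd gene, for surfactant protein D, is disrupted in every SP-D-/- mouse, whatever its exposure. Every mouse breathed ozone at 3 ppm or air for 2 h, 12 h before the lung was taken. Mice of the allergen groups had earlier been sensitised to the mould Aspergillus fumigatus (Af) by injection into the peritoneum on days 0 and 7, with an intranasal challenge on day 13. Their lungs were taken 24 h after it in air-breathing mice (Af 24 h), 96 h after it in ozone-breathing mice (Af 96 h), or 168 h after it with either gas (Af 168 h). For Af 24 h, Af 96 h, Af 168 h with air, Af 168 h with ozone, ozone alone and air alone, SP-D-/- had 6, 6, 5, 4, 4 and 5 arrays. BALB/c had 5, 6, 6, 4, 2 and 5 arrays in the same order, and C57BL/6 had 4, 5, 4, 6, 6 and 6. Ozone alone served as the reference at Af 96 h and air alone at Af 24 h. Nothing beyond the replicate numbers says that arrays came from separate animals, so the p-values measure only the spread between these arrays.

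Values are normalized log2 signals, so 1 unit is a doubling, and the number of arrays limits the precision of a group mean. The filter level, under which a signal was treated as low, was log2 4.45. Sftpd averaged 6.32 in SP-D-/- lungs in air and 10.16 in C57BL/6 lungs in air. On 5 arrays Sftpd or strain-specific genes went against the label: SP-D-/- Af 96 h replicate 1, BALB/c Af 24 h replicates 4 and 5, BALB/c Af 168 h with ozone replicate 6 and C57BL/6 Af 96 h replicate 1, so named from their labels. A gap between the 3' and 5' beta-actin control probe sets, a sign of RNA quality called here the actin difference, averaged between 2.46 and 3.08 in the 12 allergen groups. It averaged between 1.72 and 2.75 in the 3 ozone groups and between 1.59 and 1.88 in the 3 air groups. Every allergen group averaged above every air group, so allergen and this difference cannot be told apart between those groups. The 2.75 was SP-D-/- in ozone alone, close to the 2.70 of SP-D-/- at Af 96 h. The relation of the actin difference to the members within groups is given with the arrays.

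The start regions of Actc1 and Myl7 are shown because they hold the motif that sets these members apart from most promoters, the CArG box bound by serum response factor in muscle genes. Both are the 250 bases before the RefSeq start in GRCm38.p6, read 5′ to 3′ on the minus strand, with the CArG box and the element CATTCC in capitals. The Actc1 stretch lies at chr2:114052876-114053125 and the Myl7 stretch at chr11:5898783-5899032.
Actc1: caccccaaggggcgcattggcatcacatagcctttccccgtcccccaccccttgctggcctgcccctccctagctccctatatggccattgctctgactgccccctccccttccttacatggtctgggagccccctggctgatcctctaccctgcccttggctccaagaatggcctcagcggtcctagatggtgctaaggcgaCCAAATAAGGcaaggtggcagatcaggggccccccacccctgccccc
Myl7: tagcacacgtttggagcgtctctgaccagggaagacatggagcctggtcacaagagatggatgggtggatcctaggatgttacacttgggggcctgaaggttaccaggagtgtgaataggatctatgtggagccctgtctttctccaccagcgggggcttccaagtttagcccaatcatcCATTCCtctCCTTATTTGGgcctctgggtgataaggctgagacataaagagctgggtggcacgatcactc

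The CArG box began 47 bases before the start of Actc1 and 61 bases before that of Myl7, where CATTCC began 70 bases before the start. RefSeq promoters were found for 9 of the 10 members, 10 promoters in all. On either strand a CArG box was in 2 of them and in 1.47% of 32841 mouse promoters of the same length. CATTCC, the M-CAT element of troponin T and other muscle genes, was in 3 (Myh6, Myl7 and Tnnt2), against 12.6% of all promoters. AGATAA or TGATAA, which GATA factors bind, was in 4 (Myl7, Nppa, Pln and Tnnt2), against 16.6%. The E-box CANNTG was in 8, against 66.2%, and the MEF2 box in 0, against 0.509%. A match is a description of letters, not evidence of binding.

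The label was checked against chamber markers. Myl2, the ventricular regulatory light chain, was at or under the filter level on 81 of 89 arrays. It was above log2 5 on 5 arrays, the highest being 9.17 in BALB/c air replicate 6, 7.82 in C57BL/6 Af 24 h replicate 6 and 6.56 in C57BL/6 air replicate 1. These 3 arrays also had high skeletal muscle signal, with means over the 14 skeletal markers of 10.51, 9.10 and 8.77. The ventricular factor Irx4 and the cardiac factor Nkx2-5 exceeded the filter level on 0 arrays. Tbx5, a factor of the atria and of lung tissue, was above it on all 89, with a median of 7.30. Myh7, the beta myosin heavy chain, and Myl3, a light chain, both made in ventricle and slow skeletal muscle, were above it on all 89 arrays, with medians of 7.75 and 6.66. Hey2, a factor of the ventricle and of vessels, was above it on 73 arrays, and Bmp10, a growth factor of the atria, on 1. Nppb, listed here with the atrial peptides, was above it on all 89, with a median of 5.30. Its r with the mean of the members was -0.25. The chamber markers thus did not all go one way, and the signal was not assigned to a chamber.

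In air the members were tight within a strain. Tnnt2 had 8.87, 9.18, 9.29, 9.41 and 9.42 on the 5 SP-D-/- arrays, and 8.52, 8.86, 9.03, 9.24 and 9.28 on the 5 BALB/c arrays. On the 6 C57BL/6 arrays it ran from 9.22 to 9.70 with a median of 9.61. Actc1 averaged 10.46 ± 0.12 (SD) in SP-D-/-, 9.43 ± 0.28 in BALB/c and 10.78 ± 0.28 in C57BL/6. All BALB/c arrays lay below all C57BL/6 arrays for Actc1, as did every array for 2.22% of the genes tested in that comparison. The difference of -1.35 was not called in the fit, and no member was called in air in SP-D-/- or BALB/c against C57BL/6, where 0.0664% and 0.511% of tested genes were. Only the fit of these groups alone, with their own small spread, called 1 of the 8 there. Nppa averaged 6.04 ± 0.34 in SP-D-/-, 6.41 ± 0.52 in BALB/c and 7.05 ± 0.40 in C57BL/6. Pln averaged 5.44 ± 0.32, 5.68 ± 0.38 and 5.62 ± 0.14 in the same order.

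**Figure D1:**
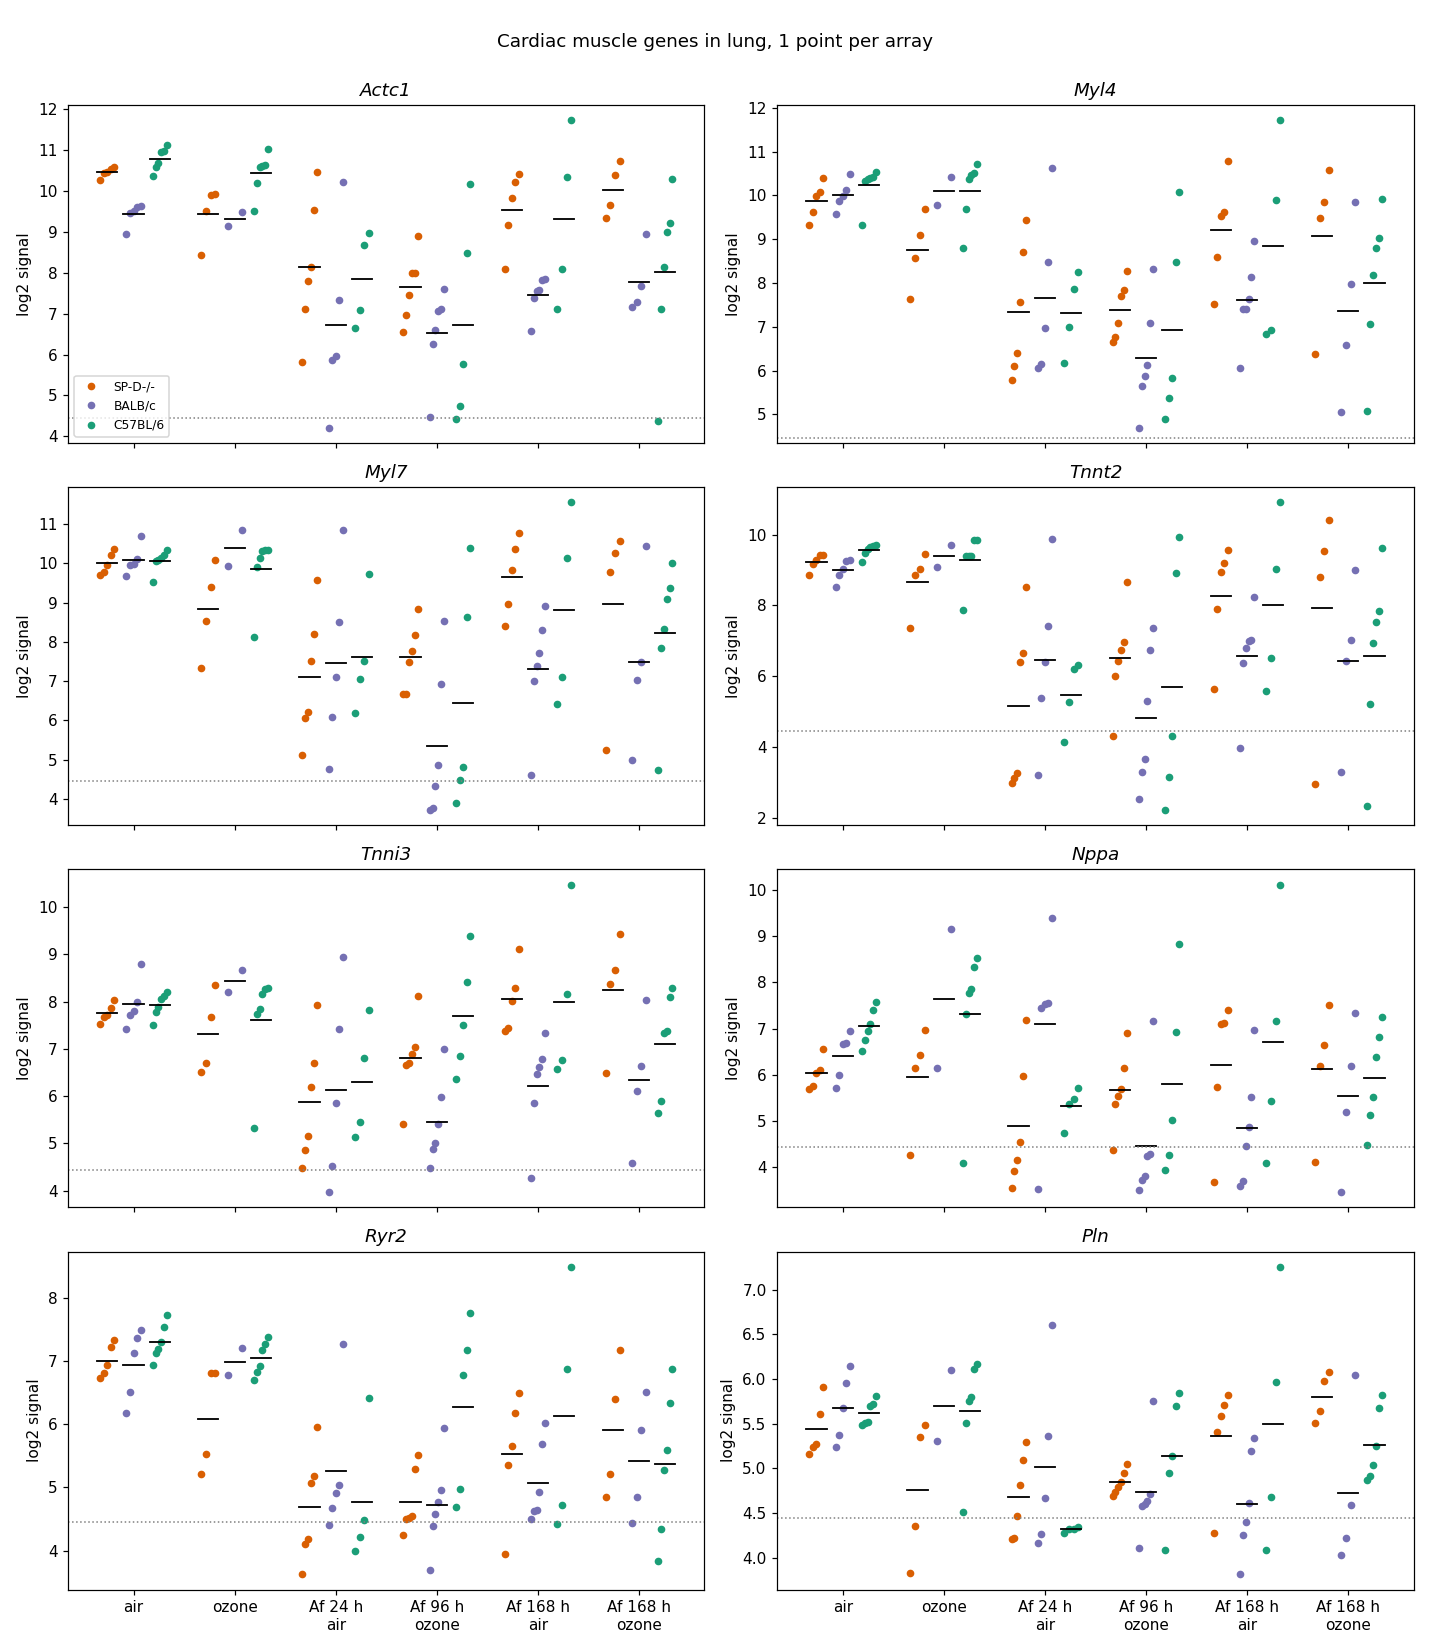
Log2 signal of the 8 measured members on each of the 89 arrays (points), by exposure along the horizontal axis and strain by colour, with group means as bars and the filter level of 4.45 as a dotted line. Air arrays form narrow bands, while allergen groups spread mostly downwards, with Tnnt2 as low as 2.24, and on some arrays upwards.

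The means of the 18 groups spanned 4.26 log2 units for Actc1, 3.94 for Myl4, 5.02 for Myl7, 4.73 for Tnnt2, 2.98 for Tnni3, 3.18 for Nppa, 2.62 for Ryr2 and 1.49 for Pln. The lowest mean was in BALB/c at Af 96 h for Actc1, Myl4, Myl7, Tnnt2, Tnni3 and Nppa, in SP-D-/- at Af 24 h for Ryr2 and in C57BL/6 at Af 24 h for Pln. The highest was in an air or ozone group for 7 members and in SP-D-/- at Af 168 h with ozone for Pln. Ordered by mean, neighbouring groups differed by less than the larger of their SDs in all 17 neighbouring pairs for 7 members, and in 16 of 17 for Actc1.

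In C57BL/6 lungs 24 h after allergen, cardiac actin, troponin T, the light chain Myl4 and the calcium-handling members Ryr2 and Pln fell against air. Tnnt2 had 4.15, 5.27, 6.21 and 6.32 on the 4 Af 24 h arrays, against 9.22 to 9.70 in air. Every Af 24 h array lay under every air array, and troponin T was 16.7-fold lower (log2 change -4.06 ± 1.19 (SE), limma adjusted p = 0.0150). Actc1 had 6.64, 7.08, 8.67 and 8.97 against 10.37 to 11.12 in air, a gap between groups of over 1 log2 unit. Cardiac actin was 7.67-fold lower (-2.94 ± 0.81, limma adjusted p = 0.0102). In bulk lung, fewer cells of a type and less RNA per cell cannot be told apart.

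Myl4 had 6.18, 7.00, 7.86 and 8.26 at Af 24 h against 9.32 to 10.54 in air (-2.91 ± 0.85, limma adjusted p = 0.0148). The release channel Ryr2 had 3.99, 4.22, 4.48 and 6.41 against 6.95 to 7.72 (-2.53 ± 0.57, limma adjusted p = 0.00178). Pln had 4.28, 4.32, 4.32 and 4.34, all under the filter level, against 5.48 to 5.81 (-1.31 ± 0.39, limma adjusted p = 0.0164). For these 3 members the groups did not overlap. Myl7 (-2.43 ± 1.03, limma adjusted p = 0.0874) and Tnni3 (-1.62 ± 0.70, limma adjusted p = 0.0951) overlapped with air through Af 24 h replicate 1. Nppa had 4.74, 5.36, 5.47 and 5.73 against 6.51 to 7.57, without overlap, but was not called (-1.73 ± 0.88, limma adjusted p = 0.157).

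Thus 5 of 8 members fell and 0 rose in C57BL/6 at Af 24 h, where 16.2% of all tested genes were called and 9.78% were called lower. For 6 of 8 every allergen array was lower, against 8.7% of tested genes. The median change of the 8 was -2.48, beside -0.00 for all tested genes. Fitting only these groups called all 8, and leaving out 1 array at a time called 4 or 5. With the actin difference as a covariate, 0 of 8 were called, with changes of -2.75 for Tnnt2 and -2.59 for Actc1 in that fit (limma adjusted p = 0.269 and 0.108). The actin difference averaged 2.84 at Af 24 h and 1.59 in air, and its part in the result was not tested.

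In SP-D-/- lungs at Af 24 h troponin T, Ryr2 and Myl4 fell. Tnnt2 ran from 2.99 to 8.53 over 6 arrays with a median of 4.84, against 8.87 to 9.42 in air (-4.07 ± 1.12, limma adjusted p = 0.0185), and 3 of the 6 were under the filter level. Ryr2 ran from 3.62 to 5.96 against 6.73 to 7.34 in air (-2.32 ± 0.54, limma adjusted p = 0.00382). Neither member overlapped between the groups. Myl4 ran from 5.79 to 9.43 against 9.33 to 10.39 (-2.55 ± 0.80, limma adjusted p = 0.0457), with 1 allergen array inside the air range.

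Myl7 did not overlap with air but missed the threshold (-2.88 ± 0.96, limma adjusted p = 0.0687), and so did Actc1 (-2.31 ± 0.76, limma adjusted p = 0.0622) and Tnni3 (-1.88 ± 0.66, limma adjusted p = 0.0862). In all, 3 of 8 members fell and 0 rose, with 4.71% of tested genes called and 3.11% called lower. All arrays were lower for 3 members, against 6.15% of tested genes. The count moved with single arrays: it was 6 without Af 24 h replicate 2, where Tnnt2 was highest, and 1 without replicate 3, 5 or 6. It was 1 with the actin difference as a covariate, which averaged 2.54 at Af 24 h and 1.88 in air, and its part in the result was not tested. It was 6 without the 5 arrays that go against their labels, none of which is in these groups.

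BALB/c lungs at Af 24 h were uneven. Tnnt2 had 3.22, 5.38, 6.42, 7.42 and 9.88, against 8.52 to 9.28 in air. Actc1 had 4.22, 5.87, 5.96, 7.32 and 10.22, against 8.95 to 9.62. In both genes Af 24 h replicate 1 stood above every air array and the other 4 stood below them. Actc1 fell (-2.71 ± 0.80, limma adjusted p = 0.0167) and so did Ryr2 (-1.68 ± 0.56, limma adjusted p = 0.0377), while Tnnt2 was not called (-2.52 ± 1.17, limma adjusted p = 0.142).

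Nppa had 3.54, 7.45, 7.54, 7.56 and 9.40 in BALB/c at Af 24 h, against 5.72 to 6.94 in air, so 4 of 5 arrays lay above the air range. This was the only member with a positive mean difference there (0.69 ± 0.86, limma adjusted p = 0.613). In total 2 of 8 members were called, both lower, with 12.1% of tested genes called and 8.13% called lower. No member was free of overlap, against 7.25% of tested genes. The count was 7 without replicate 1 and 0 without replicate 4 or replicate 5. Replicates 4 and 5 went against their label by Sftpd, at 8.79 and 7.68, under the wild-type level of 9. By strain-specific genes both lay on the BALB/c side, replicate 4 only narrowly. Without all 5 arrays that go against their labels the count was 0, and Actc1 differed by -1.63 (limma adjusted p = 0.336). With the actin difference as a covariate it was 0.

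**Figure D2:**
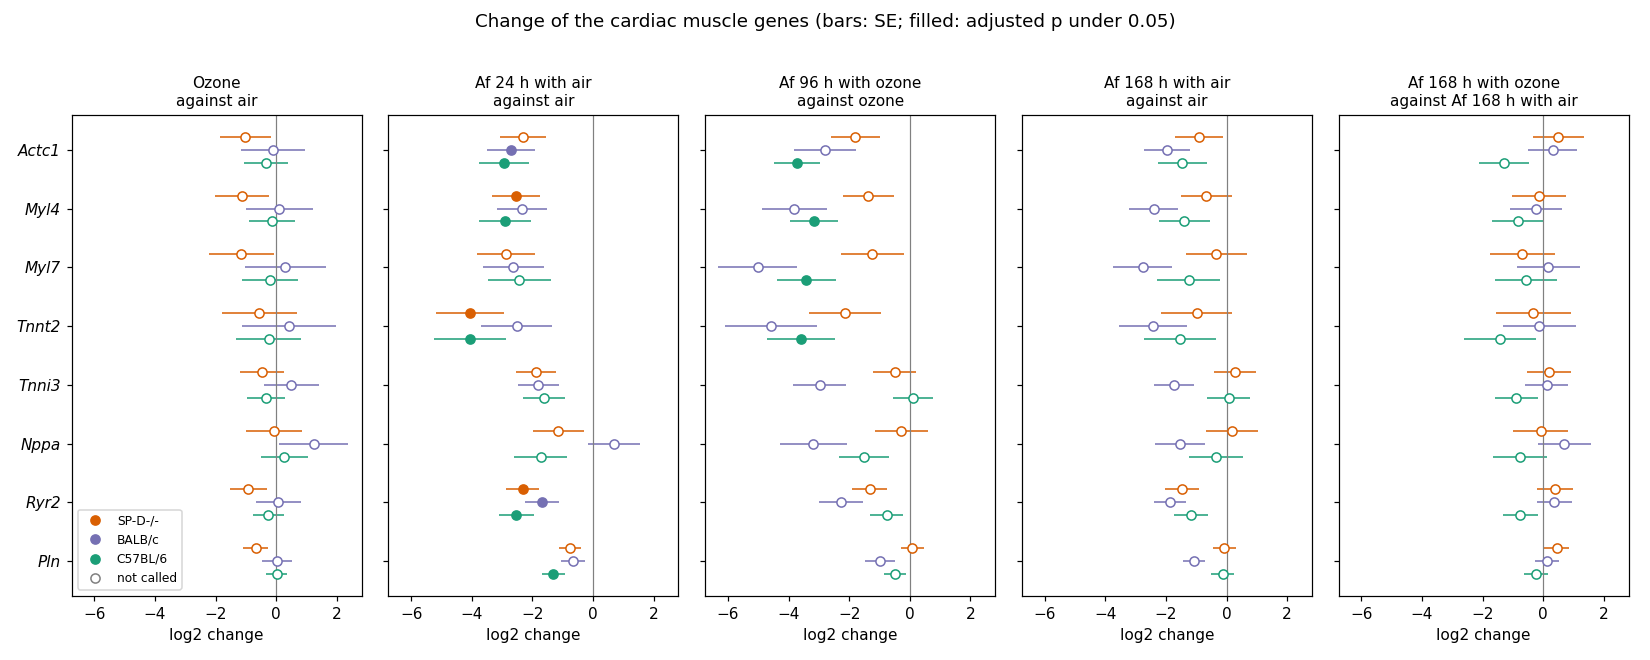
Log2 change of each member (points, with SE bars) against its reference exposure in each strain, from the fit over 89 arrays; filled points passed an adjusted p of 0.05. All filled points lie below 0, and the points furthest below 0, Myl7 (-5.02) and Tnnt2 (-4.59) in BALB/c at Af 96 h, are not filled.

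At Af 96 h with ozone, actin, troponin T and both light chains fell in C57BL/6 lungs. The calcium genes, troponin I and Nppa were not called by their chosen probe sets. Of the other probe sets of Pln, 1 with a mean of 4.03, under the filter level, was called lower (-0.68, limma adjusted p = 0.0374). The other, with a mean of 5.04, just missed the threshold (-1.87, limma adjusted p = 0.0514). Actc1 had 4.43, 4.74, 5.77, 8.47 and 10.16, against 9.52 to 11.02 in ozone alone, and was 13.1-fold lower (-3.71 ± 0.76, limma adjusted p = 0.000163). Tnnt2 had 2.24, 3.17, 4.31, 8.90 and 9.92, against 7.86 to 9.86 (-3.59 ± 1.12, limma adjusted p = 0.0102). Replicates 1, 2 and 3 were far below the ozone arrays and replicates 4 and 6 were near or within their range. Myl4 (-3.16 ± 0.80, limma adjusted p = 0.00182) and Myl7 (-3.41 ± 0.96) had the same 3 low arrays and were also called.

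Tnni3 did not share this pattern, with 6.36, 6.85, 7.50, 8.42 and 9.40 against 5.32 to 8.28 in ozone alone (0.10 ± 0.66, limma adjusted p = 0.914). Nor was Ryr2 called, at 4.70, 4.97, 6.77, 7.18 and 7.77 against 6.69 to 7.38 (-0.77 ± 0.54, limma adjusted p = 0.253). In replicate 3 the light chains were at 5.37 (Myl4) and 4.48 (Myl7), while Tnni3 and Ryr2 were at 7.50 and 7.18. Together 4 of 8 members fell and 0 rose, and no member was free of overlap. Here 36.4% of tested genes were called and 19.2% called lower, and 9.9% were lower on every array. With 1 array left out the count was 3 to 5, and without the arrays that go against their labels it was 4. It was 2 with the actin difference as a covariate and 2 with the level of the hybridization controls as a covariate. Both measures were higher in Af 96 h lungs, at 2.87 and 11.80, than in ozone alone, at 1.72 and 10.19, and their part in the result was not tested.

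In SP-D-/- lungs at Af 96 h no member was called against ozone alone, beside 2.58% of tested genes. Tnnt2 ran from 4.33 to 8.66 with a median of 6.59, against 7.35, 8.85, 9.02 and 9.44 in ozone alone (-2.14 ± 1.19, limma adjusted p = 0.320). Here 2 of 8 had an unadjusted p under 0.05 by limma, and the median change was -1.28. The actin difference was close in these groups, at 2.70 at Af 96 h and 2.75 in ozone alone, and its part in the result was not tested.

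BALB/c lungs at Af 96 h were compared with only 2 ozone arrays, and most members were far below both. Myl7 ran from 3.73 to 8.54 with a median of 4.60, against 9.93 and 10.83 in ozone alone (-5.02 ± 1.30, limma adjusted p = 0.170). Tnnt2 ran from 2.54 to 7.35, against 9.10 and 9.71 (-4.59 ± 1.51, limma adjusted p = 0.540). For 6 of 8 members all allergen arrays were lower than both ozone arrays, as for 8.26% of tested genes. None was called by limma, where 7 of 8 had an unadjusted p under 0.05 and 0.0531% of tested genes were called. The median change was -3.08.

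At Af 168 h with air, C57BL/6 lungs ranged from far below to above their air levels. Tnnt2 had 5.59, 6.52, 9.02 and 10.90 against 9.22 to 9.70 in air, and replicate 4 was above the air range for all 8 members, with Nppa at 10.11. No member was called, with 1 of 8 at an unadjusted p under 0.05 by limma, a median change of -1.21 and 1.35% of tested genes called. In SP-D-/- at Af 168 h, Tnnt2 had 5.66, 7.91, 8.95, 9.20 and 9.57 against 8.87 to 9.42 in air. Only Ryr2 was free of overlap, at 3.94, 5.35, 5.66, 6.18 and 6.50 against 6.73 to 7.34 (-1.48 ± 0.56, limma adjusted p = 0.174), as were 5.56% of tested genes. None of the 8 was called, 1 had an unadjusted p under 0.05 by limma, and 1.35% of tested genes were called.

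BALB/c lungs at Af 168 h with air lay below their air levels on most arrays. Actc1 ran from 6.58 to 7.85 with a median of 7.56, against 8.95 to 9.62 in air. Tnnt2 ran from 3.97 to 8.23 with a median of 6.89, against 8.52 to 9.28. For 6 of 8 members (Actc1, Myl4, Myl7, Tnnt2, Tnni3 and Ryr2) every array was below air, beside 4.48% of tested genes. None was called (the lowest limma adjusted p was 0.0519, for Ryr2), although 7 of 8 had an unadjusted p under 0.05 and the median change was -1.92, with 1.56% of tested genes called. Fitting only these groups called 7, averaging the probe sets of each gene called 2 and leaving out the arrays that go against their labels called 1.

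Ozone after allergen made no called difference at Af 168 h. In C57BL/6 Tnnt2 ran from 2.35 to 9.61 with a median of 7.24 on the ozone arrays, against 5.59 to 10.90 with air. In SP-D-/- it had 2.97, 8.81, 9.53 and 10.42 with ozone, against 5.66 to 9.57 with air. In BALB/c it had 3.30, 6.45, 7.01 and 9.01 with ozone, against 3.97 to 8.23 with air. The groups overlapped for every member in all 3 strains. The median changes were 0.06 in SP-D-/-, 0.15 in BALB/c and -0.80 in C57BL/6, with 0.604%, 0.0199% and 0.0597% of tested genes called in that order.

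Ozone alone also left the members uncalled. Tnnt2 had 7.35, 8.85, 9.02 and 9.44 on the SP-D-/- ozone arrays against 8.87 to 9.42 in air, and 9.10 and 9.71 on the BALB/c ozone arrays against 8.52 to 9.28. In C57BL/6 it ran from 7.86 to 9.86 with a median of 9.40 in ozone, against 9.22 to 9.70 in air. Actc1 in SP-D-/- was the only member free of overlap, at 8.42, 9.50, 9.90 and 9.92 against 10.28 to 10.59, as were 5.88% of tested genes. The median changes were -0.80 in SP-D-/-, 0.19 in BALB/c and -0.23 in C57BL/6, where 0.0996%, 0.0133% and 0.0266% of tested genes were called. On 2 of 12 ozone arrays, SP-D-/- replicate 2 and C57BL/6 replicate 5, all 8 members were below the air range of their strain.

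Between strains after exposure, 2 members were called, both at Af 96 h. In SP-D-/- against C57BL/6, 0 of 8 were called in ozone, at Af 24 h, at Af 168 h with air and at Af 168 h with ozone, where 0.797%, 0.0863%, 0.0199% and 0.504% of tested genes were. In BALB/c against C57BL/6, 0 of 8 were called in the same exposures, where 0.146%, 0.385%, 0.597% and 0.139% of tested genes were. Actc1 in ozone was lower on both BALB/c arrays than on every C57BL/6 array, as were 8.17% of tested genes. Ryr2 at Af 96 h was lower in SP-D-/- lungs, at 4.25 to 5.51 with a median of 4.53, than in C57BL/6 lungs, at 4.70, 4.97, 6.77, 7.18 and 7.77. The difference was -1.51 (limma adjusted p = 0.0442), 1 of 8 members where 16.2% of tested genes were called. It was lost without C57BL/6 replicate 3, 4 or 6 or any of several SP-D-/- arrays, its adjusted p over the arrays left out reaching 0.157. Tnni3 at Af 96 h was lower in BALB/c lungs, at 4.48 to 6.99 with a median of 5.21, than in C57BL/6 lungs, at 6.36 to 9.40 (-2.25, limma adjusted p = 0.0280). It was 1 of 8 members where 6.26% of tested genes were called, and leaving out C57BL/6 replicate 4 brought it to -1.82 (limma adjusted p = 0.112). Without the arrays that go against their labels 2 of 8 were called there.

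A response in SP-D-/- or BALB/c was then set against that in C57BL/6 in the same fit. Over 10 such differences and 8 members, 0 of 80 were called, the smallest limma adjusted p was 0.175, and 1 had an unadjusted p under 0.05. That was Tnni3 at Af 96 h, with a response in BALB/c minus that in C57BL/6 of -3.08 ± 1.11 (SE, limma adjusted p = 0.689). For SP-D-/- the share of tested genes called was 27.4% at Af 96 h, 0.0398% for ozone at Af 168 h, 0.00664% at Af 168 h with air, and 0% for ozone alone and Af 24 h. For BALB/c it was 0.0133% at Af 24 h and 0% in the other 4. Calls that were made in 1 strain and not in another are therefore not shown to differ.

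The members other than Pln varied more between allergen arrays, relative to air, than the median tested gene did. Within groups Tnnt2 had an SD of 1.01 to 3.48 in the 12 allergen groups, against 0.18 to 0.31 in the 3 air groups. The median SD of the allergen groups was divided by the median SD of the air groups. This ratio was 10.3 for Tnnt2, 6.88 for Myl7, 4.74 for Tnni3, 4.06 for Actc1, 3.89 for Myl4, 3.64 for Ryr2 and 3.56 for Nppa. It was 1.76 for Pln and 1.85 for the median tested gene. All 12 allergen groups had an SD above the highest air SD for Actc1, Myl4, Myl7, Tnnt2 and Tnni3, 11 did for Nppa and Ryr2, and 9 did for Pln. As the fit shares 1 spread over all groups, these wide allergen groups set the SE of the air comparisons too.

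**Figure D3:**
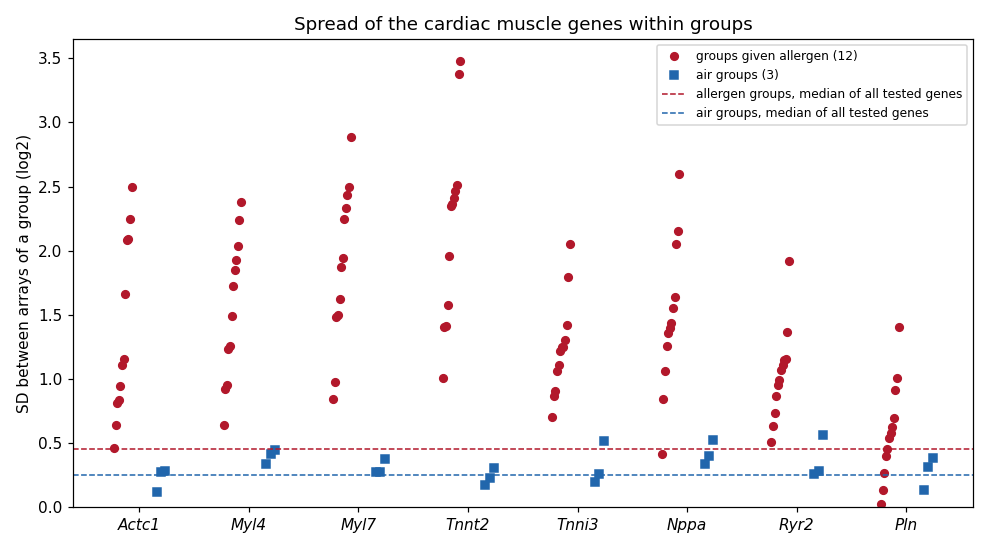
SD between arrays of a group (log2, vertical axis) for each of the 8 members in the 12 allergen groups (red circles) and the 3 air groups (blue squares), with dashed lines for the median tested gene. For Tnnt2 the allergen groups reach 3.48, and its air groups reach 0.31.

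Array by array, the members tended to be low together on most allergen arrays, and on a few they were high together. At least 6 of 8 were below the lowest air array of the strain on 48 of 61 allergen arrays, and all 8 were on 28. On 11 allergen arrays at most 2 were. At least 1 member was above the highest air array of the strain on 21 of 61. All 8 were above on C57BL/6 Af 168 h with air replicate 4, and 7 on BALB/c Af 24 h replicate 1. On C57BL/6 Af 96 h replicate 4 and SP-D-/- Af 168 h with ozone replicate 1, 6 were above. At least 6 were low on 13 of 15 arrays at Af 24 h, 16 of 17 at Af 96 h, 10 of 15 at Af 168 h with air and 9 of 14 at Af 168 h with ozone. Taken singly, Actc1 and Ryr2 were below air on 55 of 61 allergen arrays, Tnnt2 on 51, Myl4 and Myl7 on 48, Tnni3 on 43, Pln on 41 and Nppa on 36. The median tested gene was below air on 13, and between 86.6% and 97.8% of tested genes were below it on fewer arrays than a member. By strain, all SP-D-/- and BALB/c arrays at Af 96 h, all BALB/c arrays at Af 168 h with air and all C57BL/6 arrays at Af 24 h had at least 6 low.

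The members were correlated across arrays, which share their amplification and normalization. Over the 89 arrays the 28 pairs had r between 0.63 and 0.96, with a median of 0.75, and after group means were removed between 0.57 and 0.95. Myl4 and Myl7 followed the mean of the members most closely, with r of 0.96 and 0.95, and Ryr2, Pln and Nppa least, with 0.84 each. Each member is itself part of that mean, so part of its r is built in. Other probe sets of the members mostly moved with the chosen ones. That of Tnnt2 had r = 0.97 with it, those of Pln 0.83 and 0.55, and that of Ryr2 0.65 at a mean signal under the filter level. By its other probe set Ryr2 was not called at Af 24 h in C57BL/6, SP-D-/- or BALB/c. Its changes there were -0.64, -0.58 and -0.52 (limma adjusted p = 0.0858, 0.196 and 0.182). In SP-D-/- at Af 24 h the Pln probe set with r = 0.55 fell (-1.02, limma adjusted p = 0.0105). That with r = 0.83 was not called (-2.33, limma adjusted p = 0.0669). The second probe set of Myl4, with a mean of 4.94, had r = -0.31, and by it Myl4 was 0.76 higher at Af 24 h than in air in C57BL/6 lungs (limma adjusted p = 0.128), the opposite sign.

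Of all other tested genes, the 20 with the highest r with the mean of the members over 89 arrays ran from 0.71 to 0.90, where 95% of tested genes were under 0.44. They were led by Hamp (0.90), which encodes the iron hormone hepcidin. Myoz2, a Z-disc protein, had 0.89, Atp2a2, the calcium pump that phospholamban inhibits, 0.88, and Csrp3, a muscle LIM protein, 0.87. Tnnc1, the troponin C of heart and slow muscle, had 0.85, Ckmt2, the muscle mitochondrial creatine kinase, 0.84, Myh7, the beta myosin heavy chain, 0.84, and Mylk3, the cardiac light chain kinase, 0.82. Of the 20, 14 were also among the 20 highest within groups, 10 were in the lists of cardiac genes and 9 were in no list. Myh7 is a near copy of Myh6 in sequence, so how far its signal includes Myh6 is uncertain.

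Hamp averaged 5.04 ± 1.24 in SP-D-/-, 5.08 ± 1.31 in BALB/c and 4.60 ± 0.81 in C57BL/6 lungs at Af 24 h. In air it averaged 7.20 ± 0.36, 7.06 ± 0.64 and 7.30 ± 0.25 in the same order of strains. Bpifa1, an airway secretory protein and no muscle gene, was also among the 20, with r = 0.72.

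Other genes of cardiac muscle were read from lists of sarcomere, calcium and energy genes. In C57BL/6 at Af 24 h, 3 of 20 other sarcomere genes fell and 0 rose (Myoz2 at -2.52, Csrp3 at -2.39 and Tpm1, a tropomyosin, at -1.89), with a list median of -0.43, beside 9.78% of tested genes called lower. Of 16 calcium and excitation genes, Asph (-2.54) and Kcnj5 (-1.21), an atrial potassium channel subunit, fell, and of 14 energy genes 0 were called. Myh7 fell (-1.98 ± 0.57, limma adjusted p = 0.0135). At Af 96 h in C57BL/6, 6 of 20 sarcomere genes, 4 of 16 calcium genes and 2 of 14 energy genes fell, among them Atp2a2 (-1.91), beside 19.2% of tested genes called lower there. In SP-D-/- at Af 24 h, 0 of 20 sarcomere, 0 of 16 calcium and 0 of 14 energy genes were called, while Myh7 fell (-2.19 ± 0.54, limma adjusted p = 0.00715).

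In BALB/c at Af 24 h, 4 of 20 sarcomere genes fell, as did Atp2a2 (-2.08), the fatty acid binding protein Fabp3 (-1.63) and Myh7 (-1.84), beside 8.13% of tested genes called lower. At Af 168 h with air in BALB/c, 4 of 20 sarcomere genes fell, led by titin, Ttn (-3.06), as did 6 of 14 energy genes, led by Ckmt2 (-3.06), and 1 of 16 calcium genes, Casq2 (-1.64), the calcium store protein, where 1.56% of tested genes were called either way. Many genes of these lists are also active in skeletal muscle. At Af 96 h, 0 genes of these lists were called in SP-D-/- or BALB/c.

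**Figure D4:**
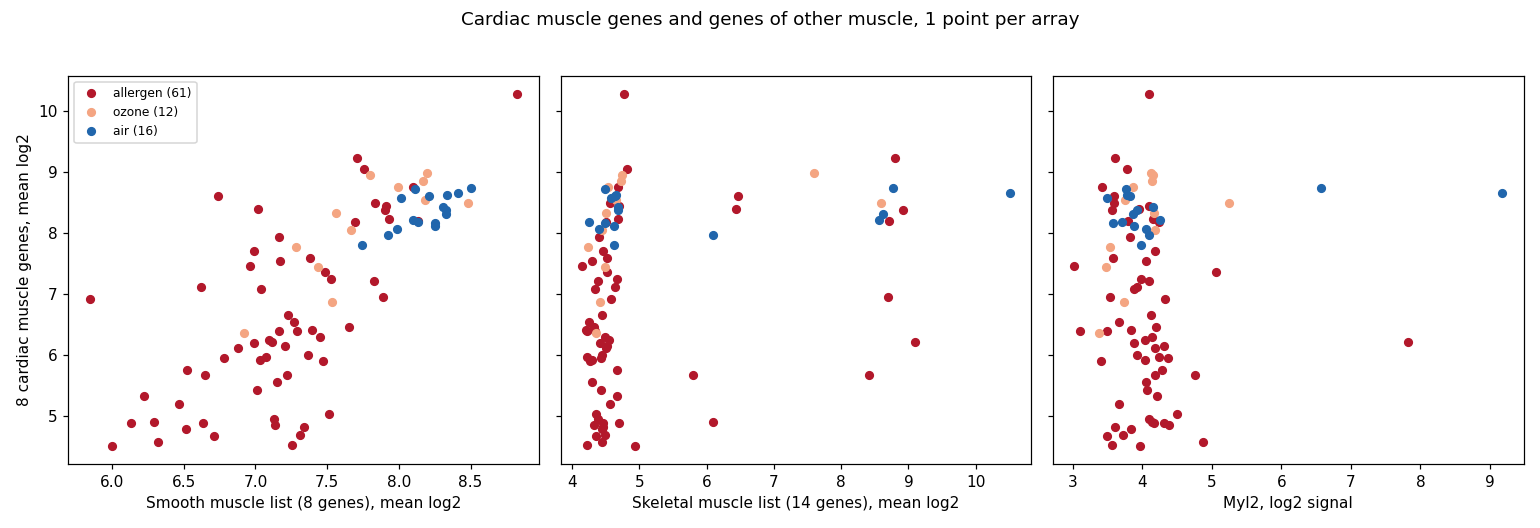
Mean log2 signal of the 8 members on each of the 89 arrays (vertical axis) against the mean of 8 smooth muscle markers, the mean of 14 skeletal muscle markers and Myl2 (horizontal axes, log2), coloured by exposure. Smooth muscle signal is higher where the members are higher (r = 0.75), while the skeletal mean is above 6 on 16 arrays, some with low and some with high members.

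Skeletal muscle signal was present on some arrays of most exposures. The mean of the 14 skeletal markers was above log2 6 on 16 of 89 arrays, 7 of them air or ozone and 9 allergen. Of those 9, 4 had at least 6 members below air and 5 had at most 2. On all 4 SP-D-/- arrays at Af 168 h with ozone the skeletal mean was high, at 6.43 to 8.92, against 4.50 to 4.69 on the SP-D-/- arrays at Af 168 h with air. That ozone group also had the highest mean of Pln, and the part of skeletal muscle in its values was not tested. Over all arrays the r of the skeletal mean with the mean of the members was 0.30, and 0.24 within groups. In C57BL/6 at Af 24 h 0 of 14 skeletal markers were called, with a median of 0.52, while in replicate 6 the skeletal mean was 9.10 and all 8 members were below air. In BALB/c at Af 168 h with air, however, 13 of 14 skeletal markers fell, led by Acta1 (-5.77), where 1.56% of tested genes were called either way. The skeletal mean ran from 4.15 to 4.49 on those arrays and from 4.62 to 10.51 in BALB/c air. The BALB/c air array at 4.62, replicate 2, had Tnnt2 at 8.86, Myl7 at 9.99 and Actc1 at 8.95. These members did not overlap between the groups, so any air array would lie above every Af 168 h array with air. The part of skeletal muscle in the BALB/c result was not tested.

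Smooth muscle markers moved with the members, though unevenly by gene. Over the 89 arrays r with the mean of the members was 0.19 for Lmod1, 0.24 for Acta2 and 0.39 for Mylk. It was highest for Cnn1 and Myh11, at 0.67 each. The mean over the 8 markers had r = 0.75 with the mean of the members over the 89 arrays and 0.70 within groups. In C57BL/6 it ran from 6.52 to 7.12 at Af 24 h and from 8.02 to 8.50 in air, without overlap. There 5 of 8 fell and 0 rose, led by Actg2 (-3.14), Myh11 (-2.91), the smooth muscle myosin heavy chain, and Cnn1 (-2.04), a calponin. At Af 24 h 3 of 8 fell in SP-D-/- and 4 of 8 in BALB/c, and at Af 96 h 6 of 8 fell in C57BL/6. Of all tested genes, 9.78% were called lower in C57BL/6, 3.11% in SP-D-/- and 8.13% in BALB/c at Af 24 h. In C57BL/6 at Af 96 h 19.2% were. At Af 168 h with air in BALB/c, 0 of 8 smooth muscle markers were called, while their mean ran from 6.96 to 7.47 there and from 7.74 to 8.41 in BALB/c air, also without overlap. Acta2 was above the filter level on all 89 arrays and Myh11 on 87, and the part of smooth muscle in the result was not tested.

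Fat markers also moved, with r = 0.58 for the mean of 6 genes, and by gene from 0.11 (Ucp1) to 0.66 (Adipoq). Adipoq, the adipocyte hormone adiponectin, fell in C57BL/6 at Af 24 h (-3.15) and at Af 96 h (-3.68). It averaged 2.37 at Af 96 h, under the filter level, against 6.05 in ozone alone. Over all arrays it averaged 3.57, also under that level. The part of fat in the result was not tested. For other tissues r of the list mean with the members was 0.43 for lung epithelium, 0.24 for venous and endothelial genes, 0.05 for oesophagus and -0.26 for thymus. For the cardiac lists it was 0.83 for sarcomere, 0.83 for calcium and 0.71 for energy genes. It was 0.73 for 3 ventricular markers, 0.62 for 15 cardiac transcription factors and 0.44 for 6 atrial peptides and secreted proteins. Endothelial genes fell for 6 of 8 in C57BL/6 at Af 96 h, led by Slc6a2 (-3.01), Vwf (-2.60) and Pecam1 (-2.54), and for 2 of 8 at Af 24 h. Of all tested genes, 19.2% and 9.78% were called lower there, in the same order.

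Within groups the members had r of -0.03 (Tnni3) to -0.29 (Tnnt2) with the actin difference and of -0.10 (Ryr2) to -0.33 (Tnnt2) with the level of the hybridization controls. For Tnnt2 the permutation p adjusted over 16 relations was 0.0138 for the first and 0.0109 for the second, and Spearman's rho was -0.30 and -0.28 (adjusted permutation p = 0.0205 and 0.0243). The permutations shuffled deviations from group means over all arrays, not within groups. As the SD of the members differed between groups, these p-values are only approximate. Without the 2 farthest arrays r was -0.36 and -0.30 for Tnnt2, and over the 8 members it ran from -0.17 to -0.36 with the actin difference and from -0.10 to -0.32 with the controls. With the actin difference 1 of 8 members passed by r, Tnnt2, and Ryr2 also passed by rho (-0.26, adjusted permutation p = 0.0342). With the hybridization controls 6 of 8 passed by r, all but Actc1 and Ryr2.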

How the data were processed

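Lung RNA was amplified with NuGEN reagents and hybridized to 89 Affymetrix HT Mouse430PM arrays, per the labels' protocols. The authors deposited normalized log2 signals of 45141 probe sets, and the software is not given in the sources used here. Every array had a median of 4.904, so a shift of all genes in 1 array would not be seen. Probe sets with 1 gene symbol (28898) gave 17097 genes, each by its probe set with the highest mean. Genes above log2 4.45 on at least 4 arrays (15065) were tested.

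A model of 18 group means was fitted with limma 3.58.1 (R 4.3.3, lmFit and eBayes, two-sided). Benjamini-Hochberg adjustment ran over all tested genes of a comparison, and a gene was called at an adjusted p under 0.05. Changes are log2 with SE and levels are mean ± SD. Named are all members, up to 3 called genes of a list with the largest change, list genes that check a tissue label, the 20 genes with the highest r with the members' mean z-score, and Sftpd. Members and lists were chosen with earlier results of these data known. The fit was tested on simulated data.

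Replicate numbers, which the titles repeat across groups, were checked as pairs by correlating residuals. All pairs exceeded 0.1 in C57BL/6 at Af 168 h, ozone against air (4 pairs, mean 0.337) and in BALB/c against C57BL/6 at Af 168 h with air (4 pairs, mean 0.256), and with or without a block 0 of 8 members were called in both.

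Alternatives were cyclic loess, averaging the probe sets of each gene, no filter, trend and robust eBayes, a replicate block, other probe sets, only the groups compared, each array left out, the mean of 18 hybridization control probe sets as a covariate, and leaving out 5 arrays that go against their labels, these last also together. The actin difference as a covariate was added after seeing the data. An array went against its label with Sftpd under 9 in a wild type or above 8 in SP-D-/-, or by the median of 40 genes separating BALB/c from C57BL/6 air arrays. Figures were drawn with matplotlib 3.10.9. Promoters are from RefSeq on GRCm38.p6, and no genome or probe sequence was used here.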

Additional observations from a re-analysis of the deposited data

Results flagged for a closer look

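In 12 of 136 combinations of gene and group 1 array stood apart from the rest of its group by Dixon's test, or 8.82%, where chance gives about 5%. They came from 7 arrays. In C57BL/6 ozone alone, replicate 5 was low for Myl7 (8.12), Tnnt2 (7.86), Tnni3 (5.32) and Nppa (4.10). In C57BL/6 air, replicate 2 was low for Myl4 (9.32) and Myl7 (9.53). In BALB/c at Af 96 h, replicate 4 was high for Nppa (7.17) and Pln (5.75). In BALB/c at Af 24 h, replicate 1 was high for Ryr2 (7.27). In BALB/c air, replicate 2 was low for Actc1 (8.95). In SP-D-/- at Af 168 h, Pln was low in replicate 5 with air (4.28) and Myl7 was low in replicate 6 with ozone (5.25).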

How the results depend on the processing

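Counts are of the 8 members called. Of 879 recomputed values, 751 kept their direction and side of the threshold (counts within 1.5 times), 75 lost their call, 50 counts moved and 3 reversed. The 751 include counts that were 0 in the main fit and stayed 0, from the comparisons without a call. They therefore do not measure how stable the calls were. The 3 were Myl4 by its other probe set, at 0.76 (C57BL/6 Af 24 h), 0.36 (C57BL/6 Af 96 h) and 0.39 (SP-D-/- Af 24 h), and the cause was not tested. Fitting only the groups compared gave 8 at Af 24 h in C57BL/6, 6 in SP-D-/- and 0 in BALB/c, 7 in BALB/c at Af 168 h with air, 0 for SP-D-/- against C57BL/6 at Af 96 h and 1 for BALB/c against C57BL/6 in air. The actin difference gave 0 at Af 24 h in C57BL/6, 1 in SP-D-/- and 0 in BALB/c, and 2 at Af 96 h in C57BL/6. The hybridization controls gave 2 at Af 96 h in C57BL/6, 1 at Af 24 h in BALB/c and 0 for SP-D-/- against C57BL/6 at Af 96 h. Without the 5 arrays that go against their labels, counts were 6 at Af 24 h in SP-D-/- and 0 in BALB/c, 1 in BALB/c at Af 168 h with air and 2 for BALB/c against C57BL/6 at Af 96 h. Both changes together gave 1 at Af 96 h in C57BL/6, 0 at Af 24 h in BALB/c, and 0 and 2 for SP-D-/- and BALB/c against C57BL/6 at Af 96 h. The mean of all probe sets gave 2 in BALB/c at Af 168 h with air and 0 for SP-D-/- against C57BL/6 at Af 96 h.

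Leaving out 1 array gave 4 to 5 at Af 24 h in C57BL/6, 1 to 6 in SP-D-/- and 0 to 7 in BALB/c, 3 to 5 at Af 96 h in C57BL/6, 0 to 1 for SP-D-/- and 0 to 2 for BALB/c against C57BL/6 at Af 96 h, and 0 to 0 in all other comparisons. In C57BL/6 single arrays ended calls of Tnnt2 at Af 24 h (without replicate 4, adjusted p = 0.0628) and at Af 96 h (without replicate 2 or 3), and of Pln at Af 24 h (without replicate 1). With the replicate block the counts were 5, 4 and 2 at Af 24 h in C57BL/6, SP-D-/- and BALB/c, 4 at Af 96 h in C57BL/6, and 1 and 1 for the strains at Af 96 h. Cyclic loess, no filter and trend and robust eBayes moved no count by over 1.5 times. The number of arrays limits the precision, with 2 in BALB/c ozone, and low signals near the filter level (Pln, Ryr2, Nppa and the lowest arrays of Tnnt2) compress differences.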
